A study of Mus musculus with 2 samples.

Results

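The cells described here are mouse embryonic stem cells (mESCs) with transcripts of *Sp5*, *Fgfbp1* or both. A cell was counted among them when at least 2 unique molecular identifiers (UMIs, the tags that count single mRNA molecules) fell on the sum of these genes, out of cells with at least 1000 detected genes, at most 5% mitochondrial UMIs and at least 10000 UMIs. They were 1206 of 5036 cells, 515 of 2193 in the WT library and 691 of 2843 in the library that its labels call S1/5 dKO. They were compared, within each library, with the cells that had 0 UMIs on both genes, 1263 and 1681, hereafter referred to as zero cells. The remaining 415 and 471 cells had 1 UMI and entered no ratio. Of the chosen cells, called *Sp5*/*Fgfbp1* cells below, only 140 and 282 had UMIs on both genes.

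The study made 1 Chromium 3′ v3 single-cell library from parental E14 mESCs (WT) and 1 from E14 cells in which *Smad1* and *Smad5* had been targeted with CRISPR-Cas9 (S1/5 dKO), to ask whether loss of these SMADs shifts the mixture of cell states. Both were grown without feeder cells on gelatin in SL, a serum medium with 15% FBS and LIF, so every ratio below was measured in the presence of serum and LIF. The sources used here do not name the dKO line behind the library. *Smad5* mRNA was higher in that library than in WT (9.88 against 5.96 CPM, UMIs of a gene per 1000000 UMIs summed over a class of cells, among the *Sp5*/*Fgfbp1* cells), and since 3′ tags need not cover the edited part of a gene, it is referred to by its label throughout, as the labelled S1/5 dKO library.

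*Sp5* encodes a zinc finger transcription factor of the Sp family and is a direct target gene of Wnt/β-catenin signaling, through TCF/LEF proteins bound at its promoter. *Fgfbp1* encodes a secreted carrier protein that releases fibroblast growth factors (FGFs) from the extracellular matrix, and it is best known from squamous epithelia. In serum plus LIF, mESCs move between naïve and formative-like states, and BMPs of the serum act through SMAD1/5 on the *Id* genes, whose products hold back differentiation factors.

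The promoters of *Sp5* and *Fgfbp1* are shown because the choice of the cells turns on these genes, beside those of 3 genes high in the same cells. Each window runs from 250 bases before to 50 bases after the RefSeq start site on GRCm38.p6 and is written 5′ to 3′ on the gene's own strand. Capitals mark matches on either strand to TCF/LEF (CTTTGA), SP/KLF (GGGCGG), TEAD (GGAATG), AP-1 (TGANTCA) and BMP SMAD (GGCGCC) motifs, and the CArG box of SRF was searched too. No printed match overlaps another. The windows are chr2:70474673-70474972 (+) for *Sp5*, chr5:43981750-43982049 (−) for *Fgfbp1*, chr3:90612644-90612943 (+) for *S100a6*, chr3:145649936-145650235 (−) for *Cyr61* and chr9:69453433-69453732 (+) for *Anxa2*.
Sp5: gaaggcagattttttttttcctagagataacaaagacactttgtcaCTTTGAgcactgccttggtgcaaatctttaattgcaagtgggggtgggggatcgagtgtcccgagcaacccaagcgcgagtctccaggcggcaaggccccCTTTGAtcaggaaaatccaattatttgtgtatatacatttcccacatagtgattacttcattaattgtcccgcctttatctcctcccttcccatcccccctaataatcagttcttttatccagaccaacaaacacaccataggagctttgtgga
Fgfbp1: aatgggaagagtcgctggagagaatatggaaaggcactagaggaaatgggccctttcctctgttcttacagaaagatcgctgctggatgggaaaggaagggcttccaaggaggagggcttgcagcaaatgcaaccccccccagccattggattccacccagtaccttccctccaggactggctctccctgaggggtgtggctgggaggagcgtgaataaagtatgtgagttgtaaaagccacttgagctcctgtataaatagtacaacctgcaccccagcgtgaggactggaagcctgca
S100a6: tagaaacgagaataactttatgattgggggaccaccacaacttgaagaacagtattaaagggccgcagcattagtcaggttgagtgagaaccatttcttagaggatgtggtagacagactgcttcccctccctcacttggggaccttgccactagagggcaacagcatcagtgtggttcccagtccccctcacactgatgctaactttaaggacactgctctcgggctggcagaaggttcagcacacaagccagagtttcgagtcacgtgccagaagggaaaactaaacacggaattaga
Cyr61: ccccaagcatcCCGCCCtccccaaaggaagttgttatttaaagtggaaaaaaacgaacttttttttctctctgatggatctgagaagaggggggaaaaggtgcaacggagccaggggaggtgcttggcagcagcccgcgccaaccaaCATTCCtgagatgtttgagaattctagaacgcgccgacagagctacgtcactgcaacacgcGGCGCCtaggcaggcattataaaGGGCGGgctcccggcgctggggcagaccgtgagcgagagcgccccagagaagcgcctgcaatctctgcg
Anxa2: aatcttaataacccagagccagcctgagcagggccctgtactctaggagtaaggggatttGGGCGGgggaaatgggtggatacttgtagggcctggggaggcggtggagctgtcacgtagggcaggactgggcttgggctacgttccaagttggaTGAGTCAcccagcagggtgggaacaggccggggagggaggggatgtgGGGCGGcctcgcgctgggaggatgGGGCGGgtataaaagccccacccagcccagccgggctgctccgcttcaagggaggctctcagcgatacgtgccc

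The *Sp5* window held 2 TCF/LEF matches, starting 204 and 104 bases before the start site, and no other motif searched. The *Fgfbp1* and *S100a6* windows held none of the motifs. Neither did those of *Gna14*, another gene high in these cells, and *Rpl39l*, a gene lower in them, which are not printed. The *Cyr61* window held 2 SP/KLF matches, 1 TEAD match 103 bases before the start and 1 BMP SMAD match, and that of *Anxa2* held 3 SP/KLF matches and 1 AP-1 match. Of all 32851 RefSeq promoter windows, 16% held the TCF/LEF letters, 35.7% SP/KLF, 14.7% TEAD, 7.81% AP-1, 11.9% BMP SMAD and 1.63% the CArG box. A match is a description of the letters only. Windows were at hand for 73.0% of the genes higher and 76.2% of the genes lower in these cells, and for 79.8% of all genes compared. These are under the 80% set as a minimum, so no motif share is given for these sets. Their shares can differ from those of all windows.

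The values in this paragraph chose the cells and are given as a description. The share of cells chosen was 23.5% in WT (exact binomial 95% interval 21.7 to 25.3) and 24.3% in the labelled S1/5 dKO library (22.7 to 25.9). After every cell was thinned to 10000 UMIs at random, the shares were 6.57% (5.57 to 7.69) and 9.85% (8.78 to 11). These intervals cover the count of cells within 1 library each and do not compare the conditions. Among the chosen cells *Sp5* stood at 16.7 CPM in WT and 40.3 in the labelled S1/5 dKO library, and *Fgfbp1* at 81.7 and 93.4. The chosen cells held 80.4% and 90.7% of the *Sp5* UMIs of all cells, and 86.9% and 87.9% of the *Fgfbp1* UMIs. The highest single cell had 10 and 25 UMIs on *Sp5*, and 52 and 51 on *Fgfbp1*. Just inside the threshold were the 185 WT cells and 197 cells labelled S1/5 dKO with 2 UMIs, and just outside it the 415 and 471 cells with 1.

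The makeup of the chosen cells, by the same 2 transcripts, is likewise a description. *Fgfbp1* without any *Sp5* UMI was seen in 331 WT cells (64.3%) and 328 cells labelled S1/5 dKO (47.5%), *Sp5* without *Fgfbp1* in 44 (8.54%) and 81 (11.7%), and both genes in 140 (27.2%) and 282 (40.8%). In cells thinned to 10000 UMIs, *Fgfbp1* was detected in 27.9% of WT cells with an *Sp5* UMI (19.8 to 37.2) and in 15.5% of those without (13.9 to 17.1). In the labelled S1/5 dKO library these shares were 37.9% (31.6 to 44.7) and 14.5% (13.2 to 16). These thinned shares were taken over all cells of each library, not over the chosen cells alone. They rest on the same 2 transcripts as the choice, so they are a description and their difference was not tested.

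**Figure D1:**
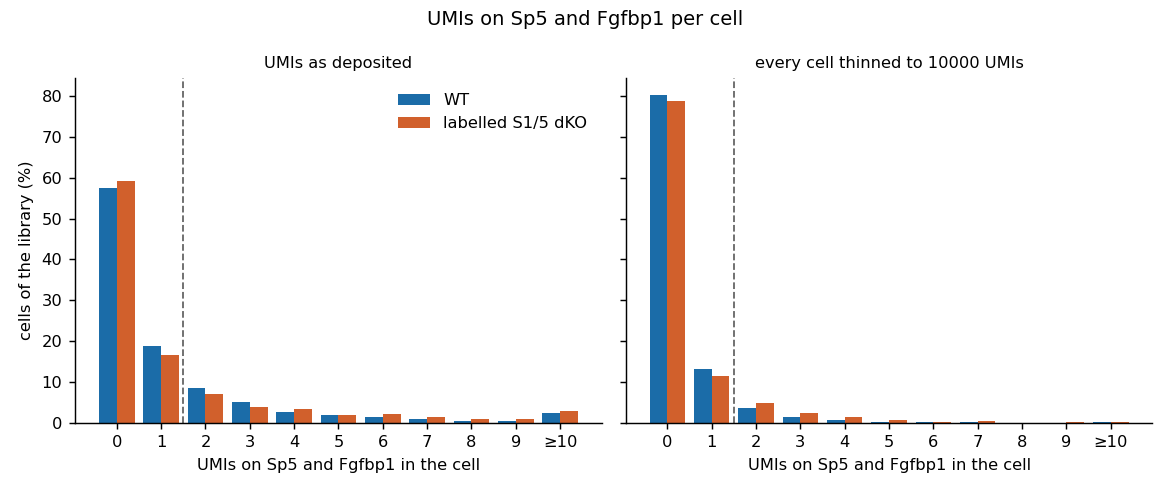
Share of the cells of each library (y axis, %) by the number of UMIs on *Sp5* and *Fgfbp1* together (x axis), with UMIs as deposited on the left and every cell thinned to 10000 UMIs on the right. The dashed line is the threshold of 2 UMIs, and most cells of both libraries lie below it, with 23.5% and 24.3% above it on the left and 6.57% and 9.85% on the right.

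A UMI in a droplet can come from free RNA, and these cultures hold no cell type known to lack both genes. Barcodes with 10 to 100 UMIs, which carry free RNA, held 3.97 (WT) and 8.17 (labelled S1/5 dKO library) CPM of *Sp5* and 14.7 and 9.19 CPM of *Fgfbp1*, against 5.49, 11.3, 24.9 and 27.1 over all cells. The part of free RNA in the choice of cells was not tested. The chosen cells were somewhat deeper than the zero cells, with a median of 42380 against 37740 UMIs in WT and 35751 against 34219 in the labelled S1/5 dKO library. Cells over 2 times the median of their library made up 11.3% of the chosen and 4.04% of the zero cells in WT, and 7.24% and 3.09% in the labelled S1/5 dKO library. No doublets were removed. At 10000 UMIs each, the chosen and the zero cells had 2786 and 2772 detected genes in WT and 2787 and 2779 in the other library, and median mitochondrial shares lay between 1.62% and 1.87% in all 4 classes. The libraries shared 0 cell barcodes.

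*Tagln*, which encodes the actin-binding protein transgelin of smooth muscle, and *S100a6*, a calcium-binding protein, were several-fold higher in the *Sp5*/*Fgfbp1* cells of both libraries. *Tfap2c*, an AP-2 transcription factor of trophoblast and germ cells, was higher in both as well, and *Otx2*, a homeodomain factor of the formative state, was higher to a smaller degree. All levels are in CPM, and all ratios are log2 ratios of these levels, with exact 95% intervals that cover counting error only. Each condition has 1 library, so there is no replicate and no test.

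*Tagln* stood at 51.7 CPM in the *Sp5*/*Fgfbp1* cells and 8.22 in the zero cells of WT, and at 25.2 and 3.98 in the labelled S1/5 dKO library. The log2 ratio was 2.65 (2.50 to 2.81) in WT and 2.66 (2.45 to 2.88) in the other library. The transcript was unevenly spread. At 10000 UMIs it was detected in 16.1% of the chosen and 6.18% of the zero cells of WT, the 5 cells with the most *Tagln* held 37.4% of its UMIs among the chosen WT cells and 32.8% in the other library, and without those 5 cells the ratios were 1.99 and 2.10.

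*S100a6* was more widely detected. It stood at 137 against 33.5 CPM in WT and at 224 against 44.0 in the labelled S1/5 dKO library, log2 ratios of 2.03 (1.95 to 2.12) and 2.35 (2.28 to 2.41). The median chosen cell had 48.5 CPM in WT and 89.4 in the labelled S1/5 dKO library, and the median zero cell 16.3 and 17.9. The distributions overlapped, since 10% of the zero cells were above 89.8 and 110 CPM. In the barcodes of 10 to 100 UMIs *S100a6* stood at 56.7 and 76.1 CPM, above the summed level of the zero cells and below that of the chosen cells, and its part in the ratio was not tested.

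*Tfap2c* stood at 13.1 against 6.56 CPM in WT, a log2 ratio of 1.00 (0.78 to 1.22), and at 18.7 against 5.00 in the labelled S1/5 dKO library, a ratio of 1.90 (1.70 to 2.11). For *Otx2* the levels were 5.05 against 3.57 in WT, a ratio of 0.50 (0.17 to 0.83), and 7.50 against 3.51 in the other library, a ratio of 1.09 (0.81 to 1.38). The *Otx2* ratio in WT did not reach 1.5-fold, and with cells chosen by *Sp5* alone it was −0.036. At 10000 UMIs *Otx2* was detected in 5.44% of the chosen and 3.25% of the zero cells of WT, so most of the chosen cells showed no *Otx2* at this depth. Of the 4 label genes that the choice did not use, 3 were at least 1.5-fold higher in both libraries, and *Otx2* only in the labelled S1/5 dKO library. The cells were chosen with earlier results of these data known, so these values are a description and no check of the label.

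Over classes of cells with more UMIs on *Sp5* and *Fgfbp1*, *S100a6* was higher in each successive class of both libraries and *Tagln* in that of WT, while *Tagln* in the other library, *Tfap2c* and *Otx2* were higher at the top than at 0 without such an order. *S100a6* went from 33.5 CPM in WT zero cells to 50.3 in cells with 1 UMI, 78.0 with 2, 114 with 3 to 4, 147 with 5 to 9 and 357 with 10 or more. In the labelled S1/5 dKO library the same classes had 44.0, 61.1, 140, 220, 266 and 327 CPM. *Tagln* stood at 8.22, 10.6, 21.0, 24.9, 35.9 and 248 CPM in these classes of WT, and at 3.98, 8.55, 23.0, 12.4, 23.2 and 65.3 in the labelled S1/5 dKO library, where it was lower at 3 to 4 than at 2 UMIs. *Tfap2c* stood at 11.2, 8.87, 16.3 and 24.3 CPM from 2 UMIs upward in WT, and at 9.89, 23.3, 21.4 and 22.2 in the other library. *Otx2* in WT lay between 4.25 and 4.60 CPM in cells with 1 to 9 UMIs and stood at 9.59 in those with 10 or more.

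**Figure D2:**
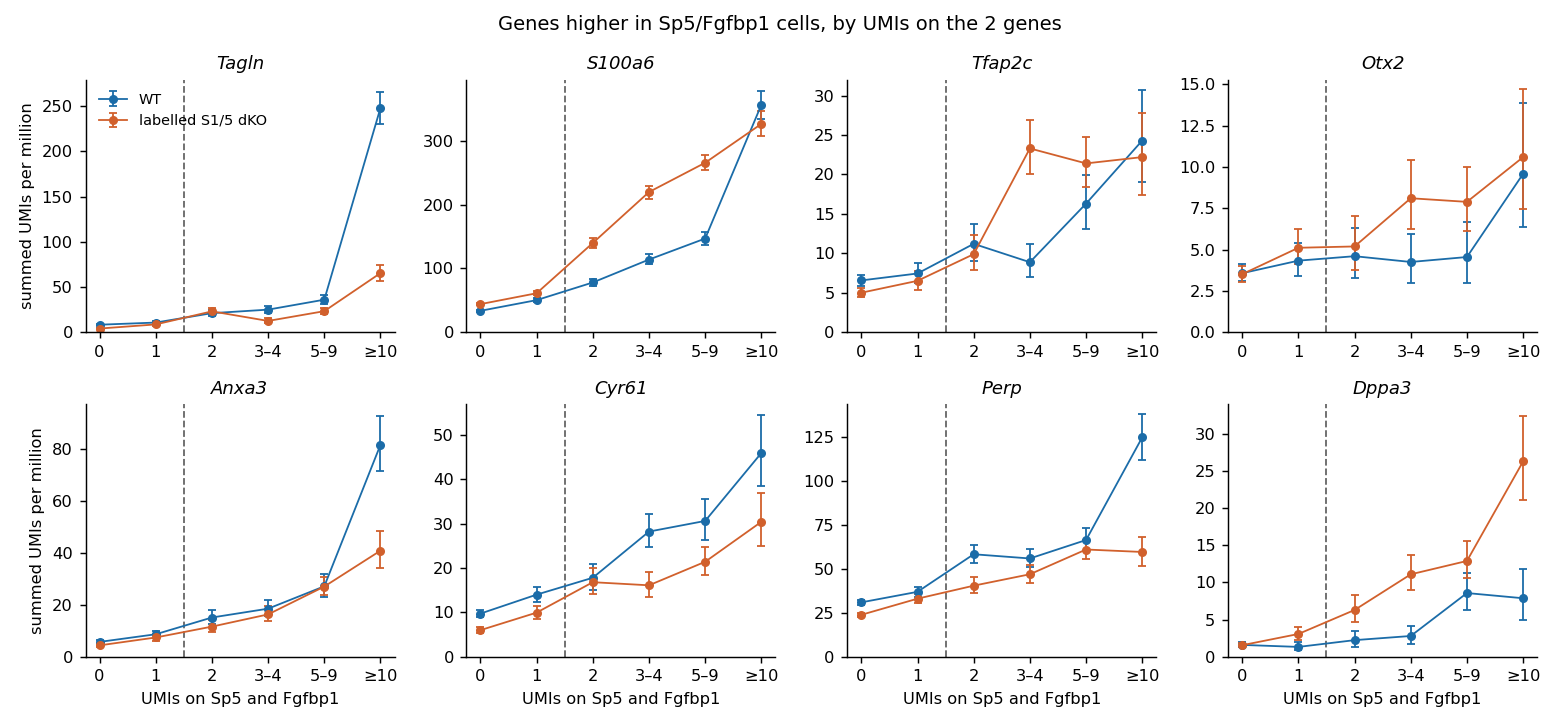
Level of 8 genes (y axis, CPM of summed UMIs, with exact Poisson 95% intervals) in cells grouped by UMIs on *Sp5* and *Fgfbp1* (x axis). Blue is WT and orange the labelled S1/5 dKO library, the dashed line is the threshold of 2 UMIs, and each gene is at or near its lowest in cells with 0 UMIs, with *S100a6* going from 33.5 to 357 and from 44.0 to 327.

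Of 10802 genes with at least 100 UMIs over the chosen and zero cells in each library, *Sp5* and *Fgfbp1* left out, 148 (1.37%) stood 1.5-fold or more above the zero cells in both libraries and 80 (0.741%) stood that far below them in both. Within WT alone 233 (2.16%) were higher and 107 (0.991%) lower, and within the labelled S1/5 dKO library 421 (3.90%) were higher and 406 (3.76%) lower. The 148 genes were 63.5% of those higher in WT and 35.2% of those higher in the other library, and the 80 genes 74.8% and 19.7% of those lower. Over all genes the median log2 ratio was 0.01 in both libraries. Of the genes higher in WT by this measure 9 were at least 1.5-fold lower in the labelled S1/5 dKO library, and of those lower in WT 0 were at least 1.5-fold higher there. Among the 9 were *Krt8*, *Gm21761*, *Gm20767*, *Gm5039*, *Gm21818* and *Gm8300*. Among the chosen WT cells 1 cell held all 624 *Gm21761* UMIs, and 1 cell held nearly all UMIs of each other *Gm* gene named. For *Krt8*, 5 cells held 52.0% of the UMIs of this class.

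**Figure D3:**
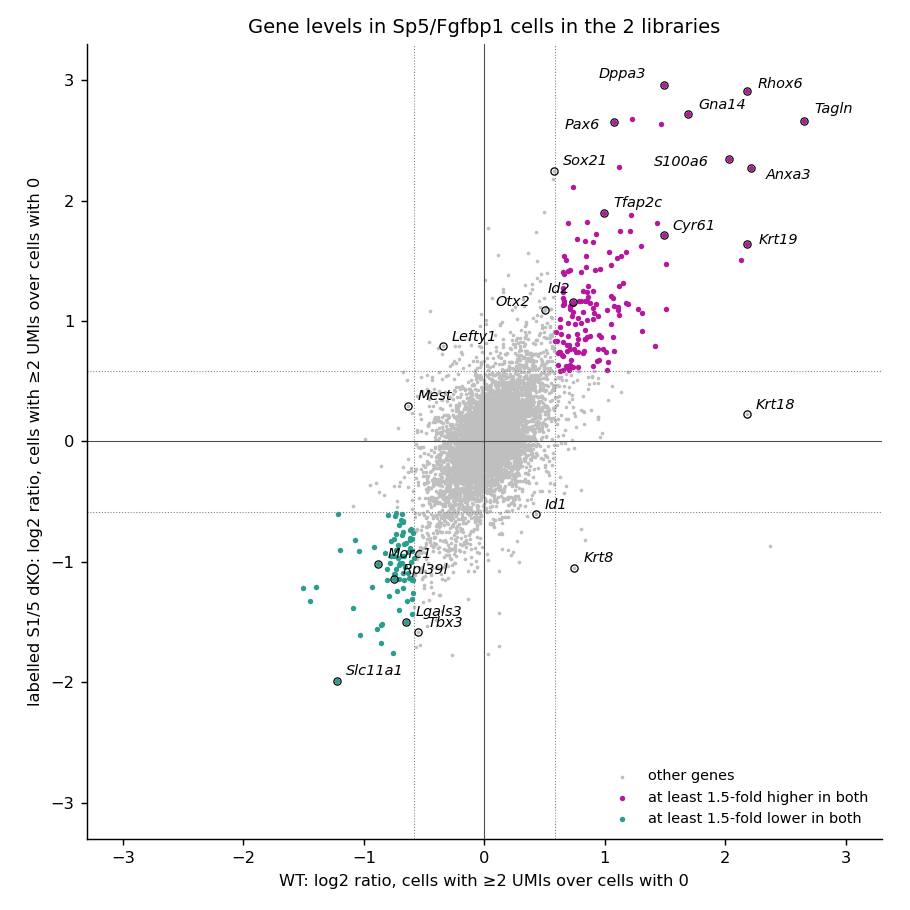
Log2 ratio of the *Sp5*/*Fgfbp1* cells over the zero cells for each of the genes compared, WT on the x axis and the labelled S1/5 dKO library on the y axis, with dotted lines at 1.5-fold. *Tagln* is far to the upper right at 2.65 and 2.66, *Id1* is right of 0 and below it at 0.43 and −0.60, and 5 genes lie outside the axes, which end at 3.3.

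The 12 genes with the highest ratios in both libraries, ranked by the smaller of their 2 ratios, were *Tagln*, *Anxa3*, *Rhox6*, *S100a6*, *Gna14*, *Krt19*, *Gm16233*, *Dppa3*, *Cyr61*, *Anxa2*, *Klhl13* and *Lpar6*. *Gna14*, an α subunit of the Gq class of G proteins, stood at 5.6 against 1.74 CPM in WT and 8.01 against 1.22 in the labelled S1/5 dKO library, log2 ratios of 1.69 and 2.72. *Lpar6*, a receptor for lysophosphatidic acid, was at 9.67 against 3.59 and 12 against 3.42 CPM. *Klhl13*, an adaptor of a Cullin 3 ubiquitin ligase, was at 6.39 against 2.31 and 11.9 against 1.91 CPM. *Rhox6*, an X-linked homeobox gene of placenta and germ cells, was at 4.06 against 0.897 and 6.85 against 0.914 CPM, and since it belongs to a family of similar copies, its reads may be shared with them.

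Of genes of the actin cytoskeleton and of YAP-TEAD and SRF transcription, 6 of 23 measured were at least 1.5-fold higher in both libraries and 0 lower, beside 1.37% and 0.741% of all genes. The median log2 ratio of the list was 0.35 in both libraries, under 1.5-fold, against 0.01 over all genes. The same shares of all genes stand beside the count of every list below, and in lists this short a count of 0 is what these shares alone would give. The lists were drawn up with earlier results of these data known, so their counts are a description. *Cyr61* and *Ctgf*, secreted matricellular proteins and well-known YAP-TEAD targets, stood at 27.3 against 9.73 and 24.0 against 9.75 CPM in WT, and at 19.7 against 6.0 and 22.0 against 7.14 in the labelled S1/5 dKO library. *Zyx*, a focal adhesion protein, had log2 ratios of 1.08 and 1.12, *Tpm1*, a tropomyosin, 0.91 and 1.07, and *Cnn2*, a calponin, 0.80 and 0.98. *Myl9*, a regulatory light chain of myosin, was the sixth, with 0.93 and 0.67, and fell short of 1.5-fold in the other library when the cells with 1 UMI joined the zero cells, at 0.40. *Cnn2* and *Myl9* were named after their values were seen.

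Other genes of the list stayed under 1.5-fold. *Actb*, the main cytoplasmic actin, stood at 3631 against 3150 CPM in WT and 3636 against 3030 in the other library, ratios of 0.20 and 0.26, and *Cnn3* had 0.10 and −0.01. *Amotl2*, an angiomotin that is both target and inhibitor of YAP, had 0.59 in WT and 0.45 in the labelled S1/5 dKO library. *Actb*, *Cnn3* and *Amotl2* were named after their values were seen.

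Annexins and S100 proteins bind calcium and membranes, and 4 of 13 measured genes of this list, which leaves out *S100a6*, were higher in both libraries and 1 lower, with medians of 0.33 and 0.45. *Anxa3* stood at 26.6 against 5.72 CPM in WT and 21.2 against 4.39 in the labelled S1/5 dKO library, log2 ratios of 2.21 (2.02 to 2.42) and 2.27 (2.06 to 2.48). *Anxa2* stood at 18.9 against 6.64 and 13 against 4.68. *Lgals1*, a galectin, was higher by 0.65 and 0.71, while *Lgals3*, another galectin, was lower, at 45.7 against 71.7 CPM in WT and 22.4 against 63.2 in the other library. *S100a13* had ratios of 1.42 and 0.80, but 5 cells held 69.1% of its UMIs among the chosen WT cells, and without them the WT ratio was −0.26. *S100a10*, the partner of annexin A2, did not reach 1.5-fold, with 0.29 and 0.07. *Lgals1* and *S100a10* were named after their values were seen.

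Among keratins and epithelial junction genes 3 of 14 measured genes were higher in both libraries and 0 lower, with medians of 0.34 and 0.19. These were the tight junction genes *Cldn6*, with log2 ratios of 1.19 and 1.14, and *Cldn7*, with 0.94 and 1.04, and the simple epithelial keratin *Krt19*, with 2.19 and 1.64. *Perp*, a desmosomal membrane protein and p53 target, stood at 67.1 against 31.0 CPM in WT and 50.9 against 23.9 in the labelled S1/5 dKO library. In the list of p53 targets, it was the only 1 of 12 measured genes to pass 1.5-fold in both libraries. The median of that list was 0.17 in WT and 0.14 in the other library. *Sfn*, which encodes the epithelial 14-3-3σ protein, was outside that list and was named after its values were seen. It stood at 99.8 against 40.3 and 75.1 against 39.9 CPM.

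The keratins of WT rested on few cells. *Krt18* stood at 16.3 against 3.61 CPM in WT and 4.65 against 3.98 in the labelled S1/5 dKO library, but 5 cells held 68.1% of its UMIs among the chosen WT cells, and without them the WT ratio went from 2.18 to 0.54. *Krt8*, its partner keratin, had 0.75 in WT and −1.05 in the other library, and without the 5 highest cells −0.30 in WT. *Krt19* went from 2.19 to 1.15 in WT and from 1.64 to 0.85 in the other library. The 5 highest WT cells of *Krt18* shared 4 with those of *Krt8*, 4 with those of *Krt19* and 1 with those of *Tagln*, so largely the same few cells carried all 3 keratins. At 10000 UMIs *Krt18* was detected in 5.83% of the chosen WT cells (3.96 to 8.21) and 3.88% of the zero cells (2.88 to 5.10), and these intervals overlapped. *Krt8* was named after its values were seen.

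Of further Wnt/β-catenin targets 9 were measured and 0 were 1.5-fold higher or lower in both libraries, beside 1.37% and 0.741% of all genes, so the count says nothing particular of the list. Its medians were 0.12 and −0.03. *Axin2*, the negative feedback gene of the pathway, stood at 1.66 against 2.40 CPM in WT and 2.20 against 2.39 in the labelled S1/5 dKO library, ratios of −0.54 (−1.08 to −0.02) and −0.12 (−0.57 to 0.32). *Ccnd1*, cyclin D1, had 0.11 and 0.15, and *Tcf7*, a TCF/LEF factor, 0.03 and 0.07. *Lef1* was under the minimum of UMIs, at 0.710 against 0.382 CPM in WT and 0.902 against 0.305 in the other library, ratios of 0.90 (−0.11 to 1.89) and 1.56 (0.65 to 2.51). Of the genes for ligands and their secretion 4 were measured, and *Wls*, which carries Wnt proteins to the cell surface, was higher in both, at 3.32 against 1.77 and 2.13 against 0.674 CPM, with a WT ratio of 0.50 without its 5 highest cells. *Wnt6* had 0.50 in WT and −0.19 in the labelled S1/5 dKO library. *Ccnd1*, *Tcf7* and *Lef1* were named after their values were seen.

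Genes around FGFs, which FGFBP1 carries, showed small ratios. Of FGF ligands, receptors and glypicans 0 of 7 measured passed 1.5-fold in both libraries, with medians of 0.12 and 0.19. *Gpc3* and *Gpc4*, heparan sulfate proteins of the cell surface, had 0.51 and 0.86, and 0.52 and 0.66. *Fgf4*, the main FGF of naïve mESCs, was lower, at 54.4 against 63.1 CPM in WT and 37.8 against 55.7 in the labelled S1/5 dKO library. *Fgf18*, which was not in the list and was named after its values were seen, was higher, at 4.58 against 2.35 and 7.93 against 2.93 CPM. Of the targets of FGF-ERK signaling 0 of 16 passed in both libraries, and *Dusp4*, an ERK phosphatase, had 0.15 (−0.19 to 0.49) in WT and 1.27 (0.99 to 1.54) in the labelled S1/5 dKO library.

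The *Id* genes did not share 1 pattern. *Id1* was higher in the *Sp5*/*Fgfbp1* cells of WT and lower in those of the labelled S1/5 dKO library, *Id2* was higher in both, and *Id3* was modestly higher in both. *Id1* stood at 390 CPM in the chosen and 290 in the zero cells of WT, and at 119 and 180 in the labelled S1/5 dKO library, log2 ratios of 0.43 (0.39 to 0.46) and −0.60 (−0.66 to −0.55). The difference between the ratios, S1/5 dKO minus WT, was −1.03 (−1.10 to −0.96 by counting error), and it was not tested, with 1 library each. Among 9742 genes with enough UMIs for this difference, 98 (1.01%) were at least 1.5-fold higher and 158 (1.62%) at least 1.5-fold lower.

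The opposite courses of *Id1* were seen over the whole range of UMIs on *Sp5* and *Fgfbp1*. In WT it stood at 290, 327, 355, 381, 436 and 423 CPM in cells with 0, 1, 2, 3 to 4, 5 to 9 and 10 or more UMIs. In the labelled S1/5 dKO library the same classes had 180, 158, 152, 115, 110 and 69.2 CPM. At 10000 UMIs *Id1* was detected in 78.4% of the chosen and 70.6% of the zero cells of WT, and in 40.7% and 61.3% of those of the other library, so the shares of positive cells moved apart like the levels did.

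*Id2* stood at 78.2 against 46.8 CPM in WT and 27.6 against 12.3 in the labelled S1/5 dKO library, ratios of 0.74 (0.65 to 0.82) and 1.16 (1.01 to 1.31). *Id3* stood at 128 against 91.4 and 74.1 against 57.6 CPM, ratios of 0.49 and 0.36. Of the 9 measured BMP-SMAD targets, which include *Tbx3*, 2 were higher in both libraries, *Id2* and the inhibitory SMAD gene *Smad6*, and 0 lower in both. *Smad6* was rare, at 2.49 against 1.49 CPM in WT and 2.70 against 0.625 in the other library, and its WT ratio was 0.51 without its 5 highest cells. The medians were 0.43 in WT and 0.11 in the labelled S1/5 dKO library.

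**Figure D4:**
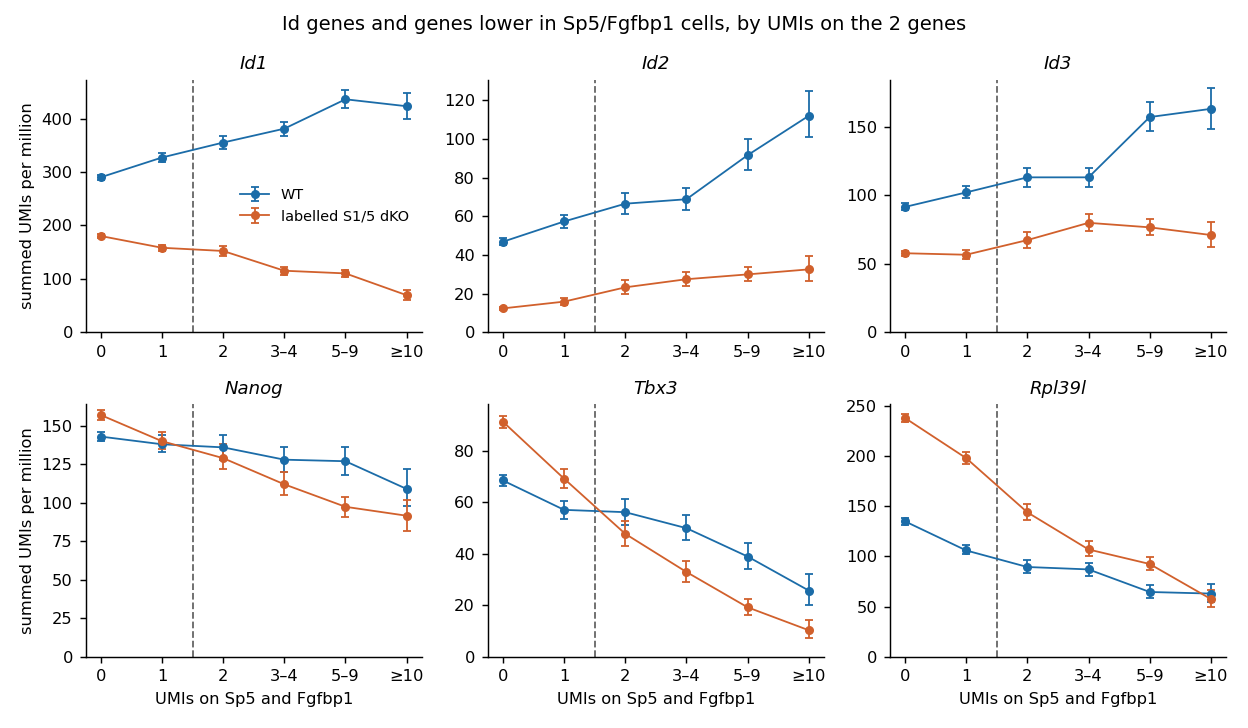
Level of 6 genes (y axis, CPM of summed UMIs, with exact Poisson 95% intervals) in cells grouped by UMIs on *Sp5* and *Fgfbp1* (x axis), blue for WT and orange for the labelled S1/5 dKO library. *Id1* goes from 290 to 423 in WT and from 180 to 69.2 in the other library, while *Nanog*, *Tbx3* and *Rpl39l* are lower at 10 or more UMIs than at 0 in both.

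*Lefty1*, a secreted Nodal antagonist, also went opposite ways, at 20.8 against 26.4 CPM in WT and 75.5 against 43.7 in the labelled S1/5 dKO library, ratios of −0.34 (−0.49 to −0.20) and 0.79 (0.71 to 0.87). Over the classes from 0 to 10 or more UMIs WT showed no order, at 26.4, 21.8, 26.9, 14.0, 16.6 and 30.8 CPM. Without the 5 highest cells of *Lefty1* the ratios were −0.84 and 0.51. *Lefty2*, its neighbour and paralog, was lower in both, with −0.71 and −0.37, and reads from so similar a pair may be shared. Of the 10 measured genes of the pathway 0 were at least 1.5-fold higher or lower in both libraries.

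Core pluripotency genes differed by less than 1.5-fold. *Pou5f1*, which encodes OCT4, stood at 1278 against 1329 CPM in WT and 1204 against 1321 in the labelled S1/5 dKO library, and 0 of 9 core genes passed 1.5-fold, with medians of −0.00 and 0.02. The summed level of the list was 7081 against 7304 CPM in WT and 6576 against 7712 in the labelled S1/5 dKO library, lower in the chosen cells of both. *Dppa5a*, an RNA-binding protein abundant in mESCs, stood at 3982 against 4132 and 3583 against 4559 CPM, and *Tdgf1*, the Nodal co-receptor, at 393 against 437 and 369 against 465. *Pou5f1* was named after its values were seen, as were *Nanog*, *Zfp42*, *Klf4*, *Esrrb* and *Dnmt3b* below.

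Of 16 measured genes of the naïve state 0 were at least 1.5-fold lower in both libraries, 0 in WT and 2 in the labelled S1/5 dKO library, and *Dppa3* alone was higher in both. The medians were −0.14 in WT and −0.29 in the labelled S1/5 dKO library. *Tbx3*, a T-box factor of the naïve network, stood at 46.7 against 68.4 CPM in WT and 30.4 against 91.2 in the labelled S1/5 dKO library, ratios of −0.55 (−0.64 to −0.45) and −1.59 (−1.69 to −1.48). *Nanog* had −0.16 and −0.51, *Klf4* −0.23 and −0.39, *Esrrb* −0.13 and −0.25, and *Zfp42*, known as REX1, −0.15 and −0.26. Each of these 5 transcription factor genes was lower in both libraries, and further down in the labelled S1/5 dKO library. All but *Tbx3* were picked from the 16 genes after their values were seen, so they do not stand for the list. *Nanog* was lower in each successive class of UMIs on *Sp5* and *Fgfbp1* in the latter, at 157 CPM with 0 UMIs and then 140, 129, 112, 97.4 and 91.6, and in WT stood at 143 at 0 and 109 at 10 or more.

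*Dppa3*, the maternal factor known as Stella, was the only gene of the naïve list at least 1.5-fold higher in both libraries. It stood at 4.50 against 1.60 CPM in WT, a ratio of 1.49 (1.07 to 1.91), and at 12.1 against 1.56 in the labelled S1/5 dKO library, a ratio of 2.96 (2.63 to 3.3). At 10000 UMIs it was detected in 4.08% of the chosen and 1.74% of the zero cells of WT, and in 8.54% and 1.19% of those of the other library. In WT 5 cells held 33.3% of its UMIs among the chosen cells, and without them the WT ratio was 0.92. The WT cells with *Sp5* alone stood at 1.46 CPM, no higher than the zero cells. *Dppa3* is also a gene of primordial germ cells, and with *Tfap2c* it made up the 2 of 10 measured genes of that list that passed in both libraries. *Kit*, the receptor for stem cell factor, was lower, with −0.38 and −0.43.

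Of 13 measured formative and primed genes, 1 was at least 1.5-fold higher in WT and 3 in the labelled S1/5 dKO library, with medians of 0.06 and 0.41. *Car4*, a membrane-bound carbonic anhydrase, passed 1.5-fold in both libraries, at 2.49 against 1.07 and 4.62 against 1.25 CPM. *Dnmt3l*, the cofactor of de novo DNA methylation, was at 118 against 83.8 and 116 against 75.7 CPM, and *Dnmt3b*, a de novo methyltransferase, had ratios of 0.29 and 0.52. *Zic2*, a zinc finger factor of the primed epiblast, had −0.45 (−0.93 to 0.01) and 0.41 (−0.10 to 0.90).

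Of 5 measured neuroectoderm genes 2 were at least 1.5-fold higher in both libraries, beside 1.37% of all genes. *Pax6*, a paired-box factor of neural progenitors, stood at 6.51 against 3.09 CPM in WT and 7.07 against 1.12 in the labelled S1/5 dKO library, ratios of 1.07 (0.75 to 1.40) and 2.65 (2.25 to 3.07). *Nes*, the intermediate filament nestin, had 0.77 (0.50 to 1.05) and 0.61 (0.35 to 0.87). Its call did not hold under other settings, with 0.12 in the labelled S1/5 dKO library among cells of 25000 to 50000 UMIs and 0.53 in WT without its 5 highest cells. *Sox21*, a SOXB2 factor outside the list, stood at 5.45 against 3.64 and 6.92 against 1.46 CPM. *Tubb3*, a neuronal tubulin, was lower in both, at 113 against 156 and 125 against 165 CPM. For *Pax6* and *Sox21* the chosen cells of the libraries were within a few CPM of each other, while the zero cells of the labelled S1/5 dKO library were below those of WT.

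Among imprinted genes 2 of 16 measured were higher in both libraries and 0 lower, with medians of 0.07 and 0.33. *Peg10*, a paternally expressed retrotransposon-derived gene, had log2 ratios of 0.71 (0.58 to 0.85) in WT and 1.11 (1.03 to 1.19) in the labelled S1/5 dKO library, and *Meg3*, a maternally expressed long noncoding RNA, stood at 173 against 110 and 235 against 133. *Cdkn1c*, a cell cycle inhibitor, had 0.48 and 0.67. *Mest* is described with the differences between the libraries.

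**Figure D5:**
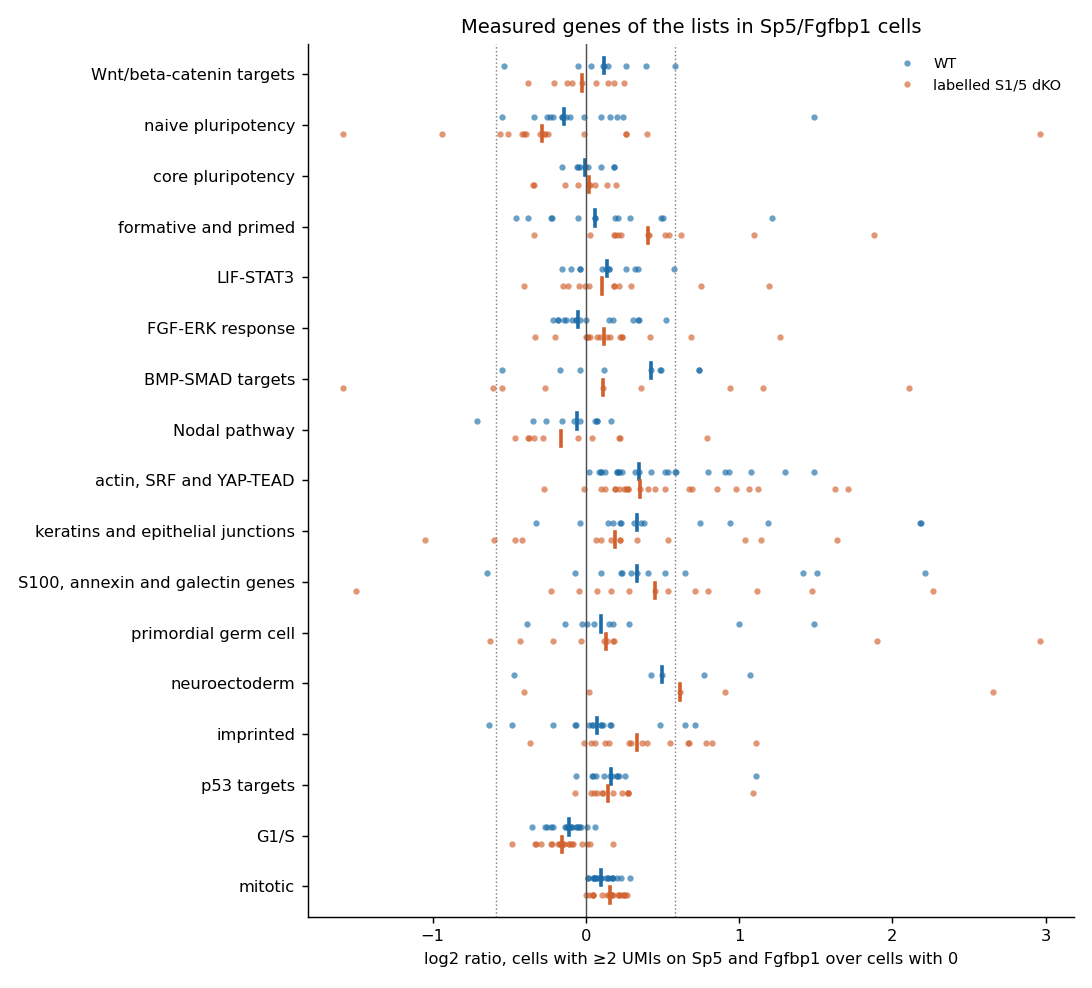
Log2 ratio of the *Sp5*/*Fgfbp1* cells over the zero cells (x axis) for the measured genes of 17 lists (y axis), blue for WT and orange for the labelled S1/5 dKO library, with a bar at each list's median and dotted lines at 1.5-fold. The actin, SRF and YAP-TEAD medians lie at 0.35 in both libraries, and those of naïve genes at −0.14 and −0.29.

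The cell cycle lists moved little. Of 20 G1/S genes and 20 mitotic genes 0 passed 1.5-fold in both libraries, with medians of −0.11 and −0.15 for G1/S and 0.10 and 0.16 for mitotic genes. *Cdc20*, an activator of the anaphase-promoting complex, was at 398 against 340 CPM in WT and 381 against 327 in the other library, and *Pcna*, the DNA polymerase clamp, at 43.1 against 51.7 and 42.4 against 51.9. Of 15 ER stress genes 0 passed in both libraries, and *Derl3*, an ER degradation factor, was lower at 3.75 against 6.89 and 4.51 against 6.05 CPM. LIF-STAT3 genes, 0 of 12 in both libraries, had medians of 0.14 and 0.10, with *Pim1*, a STAT3-induced kinase, at 37.6 against 25.3 and 64.1 against 28.0 CPM. *Slc2a1*, the GLUT1 glucose transporter, had 0.44 and 0.84, and 0 of 15 measured glycolysis genes passed in both libraries.

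Besides the neuroectoderm, germ cell and epithelial genes above, few markers of other cell types were measured. None of 1 measured primitive streak gene, 3 trophoblast genes, 6 primitive endoderm genes or 5 mesenchymal genes passed 1.5-fold in both libraries, nor did any of 13 extracellular matrix and adhesion genes. *Plaur*, the urokinase receptor, passed it in WT among the latter, with 1.06 in WT against 0.46 in the labelled S1/5 dKO library. All 10 fibroblast markers were under the minimum of UMIs. Their summed level was 1.78 and 2.14 CPM in the chosen and zero cells of WT and 1.88 and 2.07 in the other library, with *Col3a1*, *Lum*, *Postn* and *Col6a1* at 0 UMIs.

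Transcripts of the 2C-like state, a rare condition of mESCs that resembles the 2-cell embryo, came from few cells. In WT 1 chosen cell held all 624 *Gm21761* UMIs of the class, and the summed 2C-like list was at 5.72 CPM in the chosen and 0.229 in the zero cells. In the labelled S1/5 dKO library the 4 cells with at least 10 such UMIs were all zero cells, and the sums were 0.252 and 6.51. Leaving these cells out moved none of 204 ratios of other genes named here out of its counting interval. The 2C-like genes named here, *Gm21761* among them, were not part of the 204.

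The 12 genes with the lowest ratios in both libraries were *Pik3c2b*, *Crtac1*, *Slc11a1*, *Asgr2*, *Tns1*, *Ripply3*, *AC191865.2*, *Elobl*, *Ttc29*, *Igfbp7*, *Morc1* and *Zfp600*, and all but *Morc1*, *Slc11a1* and *AC191865.2* were below 6 CPM in every class. *Morc1*, an ATPase of the germline that silences transposons, was the most abundant, at 30.0 against 55.2 CPM in WT and 42.8 against 86.5 in the labelled S1/5 dKO library, ratios of −0.88 (−1.0 to −0.76) and −1.02 (−1.11 to −0.93). *Slc11a1*, a metal transporter of phagosomes known as NRAMP1, was at 4.10 against 9.56 and 4.62 against 18.3 CPM. *Igfbp7*, a secreted IGF-binding protein, was at 2.01 against 3.72 and 1.37 against 4.04, and *Ripply3*, a corepressor of T-box factors, at 1.54 against 3.15 and 1.41 against 4.30.

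Among the other genes lower in both libraries, named after their values were seen, were ribosomal protein paralogs of the male germline. *Rpl39l* stood at 80.1 against 135 CPM in WT and 107 against 238 in the labelled S1/5 dKO library, and *Rpl10l* at 23.5 against 38.2 and 31.0 against 62.7. *Rpl39l* was lower in each successive class of UMIs on *Sp5* and *Fgfbp1*, at 135, 106, 89.5, 87.1, 64.6 and 63.0 CPM in WT and at 238, 198, 144, 107, 92.5 and 57.6 in the other library. How reads that match both a paralog and its parent gene were counted could change these values. *Platr3*, a long noncoding RNA of pluripotent cells, was at 5.17 against 8.49 and 12.5 against 22.6 CPM, and *Rex2*, a zinc finger gene of mESCs, at 5.41 against 8.89 and 5.66 against 11.1.

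Further genes higher in both libraries were likewise named after their values were seen. *Jun*, an AP-1 subunit, stood at 9.63 against 4.47 CPM in WT and 8.65 against 3.99 in the labelled S1/5 dKO library. *Gadd45g*, a stress-response gene, was at 4.03 against 1.85 and 10.7 against 2.21 (a WT ratio of 0.43 without its 5 highest cells), *Bcl2l11*, the pro-apoptotic BIM, at 8.29 against 3.72 and 9.30 against 3.74, and *Plin2*, a lipid droplet protein, at 19.9 against 9.20 and 22.6 against 10.9. *Nrp2*, a semaphorin and VEGF co-receptor, had ratios of 1.23 (0.74 to 1.73) and 2.68 (2.18 to 3.20).

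The chosen cells were not uniform, and several genes went with 1 of the 2 transcripts. *S100a6* stood between 40.8 and 60.6 CPM by its counting interval in the 44 WT cells with *Sp5* alone, and at 140 in the 331 with *Fgfbp1* alone and 156 in the 140 with both. In the labelled S1/5 dKO library these levels were 90.7, 239 and 241. *Anxa3* likewise was at 8.74, 28.1 and 28.2 CPM in WT and at 10.3, 22.3 and 22.9 in the other library. The *S100a6* and *Anxa3* levels of the cells with *Sp5* alone were nearer to those of the zero cells than the levels of the other chosen cells were.

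*Gna14* and *Pax6* were higher with *Sp5*. *Gna14* was at 18.4 CPM with *Sp5* alone, 3.20 with *Fgfbp1* alone and 7.23 with both in WT, and at 10.9, 3.46 and 12.5 in the labelled S1/5 dKO library. *Pax6* was at 11.6, 4.83 and 8.73 in WT, and at 14.1, 3.01 and 9.89 in the other library. *Id2* was at 129, 71.9 and 77.6 in WT, and at 38.5, 19.4 and 34.1 in the other library. *Tbx3* was lower with *Sp5*, at 25.7, 54.1 and 36.7 in WT, and 15.1, 46.6 and 15.5 in the other library. *Id1* was highest with *Sp5* alone in WT, at 507, 336 and 473 CPM, and lowest with both genes in the labelled S1/5 dKO library, at 116, 135 and 99.5. *Otx2* stood at 1.94 CPM with *Sp5* alone in WT, from 4 UMIs. Its counting interval there (0.529 to 4.97) included the 3.57 CPM of the zero cells.

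The *Sp5*/*Fgfbp1* cells of the libraries were also set side by side. Of 10253 genes with at least 100 UMIs over these cells when the libraries were added, 155 (1.51%) stood 1.5-fold or more above WT and 242 (2.36%) that far below it in the labelled S1/5 dKO library. With 1 library each, line, culture and library cannot be told apart. *Smad1* was lower, at 9.63 against 12.8 CPM, a log2 ratio of −0.41 (−0.65 to −0.18), and *Smad5* higher, with 0.73 (0.44 to 1.03). Within a library neither gene differed between chosen and zero cells beyond its counting interval, with −0.09 and 0.12 for *Smad1* and −0.08 and 0.14 for *Smad5*.

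*Id1* was 3.29-fold lower in the *Sp5*/*Fgfbp1* cells of the labelled S1/5 dKO library than in those of WT, a log2 ratio of −1.72 (−1.77 to −1.66), against −0.68 (−0.72 to −0.65) between the zero cells. For *Id2* the order was turned, with −1.50 (−1.63 to −1.38) between the chosen and −1.93 (−2.04 to −1.81) between the zero cells. *Id3* had −0.79 and −0.67. All 3 *Id* genes were thus lower in the labelled S1/5 dKO library in both classes, and the gap between the classes was widest for *Id1*.

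*Mest*, a paternally expressed imprinted gene of the mesoderm, was 13.9-fold higher in the *Sp5*/*Fgfbp1* cells of the labelled S1/5 dKO library than in those of WT, a log2 ratio of 3.8 (3.59 to 4.01), against 2.87 (2.75 to 2.99) between the zero cells. Within WT it was lower in the chosen cells, at 7.81 against 12.1 CPM. It was detected in 37 of 515 chosen cells (7.18%) and in 12.7% of the zero cells. The WT cells with *Fgfbp1* alone stood at 5.27 CPM (4.20 to 6.52). Those with *Sp5* alone, at 10.7 (6.69 to 16.2), and with both genes, at 12.5 (10.1 to 15.4), were near the zero cells. Within the labelled S1/5 dKO library *Mest* was higher, at 109 against 88.5 CPM, and was detected in 92.6% of the chosen and 87.7% of the zero cells. The WT values rested on few cells, with 30.8% of the *Mest* UMIs of the chosen WT cells in 5 of them.

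*Rhox5*, an X-linked homeobox gene, had 0.57 (0.40 to 0.74) in WT and 2.18 (2.03 to 2.33) in the labelled S1/5 dKO library, but 5 cells held 49.4% of its UMIs among the chosen WT cells, and without them the WT ratio was −0.40. *Pls3*, an actin-bundling plastin, had 0.11 and 1.55. *Sparc*, a matricellular glycoprotein, stood at 211 against 167 CPM in WT and 138 against 153 in the labelled S1/5 dKO library, ratios of 0.33 (0.28 to 0.38) and −0.15 (−0.21 to −0.10).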

How the data were processed

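Single-cell RNA-seq libraries of WT and S1/5 dKO mESCs, 1 of each, were made with the Chromium 3′ v3 kit. Per the file headers and the submitters' processing notes, Cell Ranger 3.0.2 with the mm10 genome was used by the authors, and the deposited matrices hold their raw UMI counts per gene and barcode for all barcodes, with no normalization. UMI totals of the cells kept were 95749252 (WT) and 108678040 (labelled S1/5 dKO library), with medians of 38987 and 34856 per cell. Cells were kept at 1000 genes or more and 5% mitochondrial UMIs or less (2236 and 2910 cells), of which 2193 and 2843 had at least 10000 UMIs.

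From these counts, UMIs were summed per class and divided by the class total. Ratios have exact conditional binomial, levels exact Poisson and shares Clopper-Pearson intervals at 95%. They cover counting error only, and no test was run. A difference of 2 ratios has an approximate interval, for genes with at least 400 UMIs over the 4 classes. Detection was compared after thinning cells to 10000 UMIs. Gene positions are those of GENCODE vM21 and promoter windows those of RefSeq, matched by symbol for 8620 of 10802 genes. The steps were tested on simulated data.

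The cells, gene lists and alternatives were chosen with earlier results of these data known. Genes named singly are the 4 label markers, *Id1*, *Id2*, *Id3*, *Smad1*, *Smad5* and *Mest*, the 12 highest and 12 lowest by the smaller ratio, up to 4 genes of each list by mean absolute ratio, and the 5 highest and 5 lowest differences between the libraries. Genes named outside this rule are marked, and some genes that meet it are not reported here. Python 3.11.15, numpy 2.4.6, scipy 1.17.1, pandas 2.3.3, matplotlib 3.10.9, R 4.3.3 and edgeR 4.0.16 (for TMM factors only) were used.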

Additional observations from a re-analysis of the deposited data

Results flagged for a closer look

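Some ratios of the *Sp5*/*Fgfbp1* cells over the zero cells pointed in opposite directions in the libraries. The difference, S1/5 dKO minus WT on the log2 scale, was −1.03 for *Id1*, 0.93 for *Mest*, 1.13 for *Lefty1* and −0.48 for *Sparc*. With 1 library per condition these differences were not tested.

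Genes of the 2C-like state gave the largest opposite ratios, −13.56 for *Gm20767*, −13.45 for *Gm21761* and −12.70 for *Gm5039*, and these were not tested either. *Gm21818* and *Gm8300* had 0 UMIs in the chosen cells of the labelled S1/5 dKO library, where 3 counts are the limit, and 203 and 95 UMIs in those of WT, of which 202 and 94 lay in 1 cell. In the labelled S1/5 dKO library the 270 and 611 UMIs of these genes in zero cells lay in 9 and 13 cells. Reads of these multicopy genes may be shared between copies.

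Cells under 10000 UMIs entered no comparison. Of 67 such cells in the labelled S1/5 dKO library 4 had at least 2 UMIs on *Sp5* and *Fgfbp1*, and 1 of 43 in WT.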

How the results depend on the processing

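Of 216 values of single genes, TMM scaling moved 7 and median-of-ratios scaling 5 out of their counting intervals. Neither turned the direction of a ratio whose interval excluded 0, and a limit of 3% mitochondrial UMIs moved 0. Leaving out 2C-like cells moved 0 of 204, which do not include the 2C-like genes themselves. The share of cells chosen (23.5% in WT and 24.3% in the labelled S1/5 dKO library) was 6.57% and 9.85% after thinning, 42.4% and 40.9% with at least 1 UMI, 15.0% and 17.4% with at least 3, 5.06% and 8.72% by *Sp5* alone, 19.6% and 18.1% by *Fgfbp1* alone, and 21.3% in WT cells of 25000 to 50000 UMIs. The *Id1* difference (−1.03) was −1.59 after thinning, −0.75 with at least 1 UMI, −1.27 with at least 3, −1.77 by *Sp5* alone, −1.28 without cells over 2 times the median UMIs, −1.44 in cells of 25000 to 50000 UMIs and −1.12 as a mean over cells. The 148 genes higher were 277 after thinning, 94 with at least 1 UMI, 376 with a minimum of 20 UMIs per gene, 52 with 500, 816 with 1 UMI in each class and 38 at 2-fold. The 80 genes lower were 216, 31, 205, 22, 366 and 6 under the same settings and 208 by *Sp5* alone. The cause was not tested, except that other minimums compare other numbers of genes.

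By *Sp5* alone *Otx2* was at −0.036, *Rhox5* at −0.61 and *Cnn3* at −0.062 in WT, and *S100a10* at −0.13 and *S100a13* at −0.18 in the labelled S1/5 dKO library. After thinning *Ccnd1* was at −0.072 in WT. Without the 5 chosen cells with the most UMIs of the gene, a setting added after seeing the data like the removal of 2C-like cells, *Krt8* was at −0.30, *Rhox5* at −0.40 and *S100a13* at −0.26 in WT. Over all settings and single genes, 676 other values moved by more than their counting interval without such a reversal, and 2519 did not. A reversal was counted only where the main interval excluded 0. Changes of sign in other ratios are not listed, such as *Krt18* in the labelled S1/5 dKO library, with an interval of −0.09 to 0.54 and a lowest value of −0.18. Of 55 named genes past 1.5-fold in both libraries, 24 fell short of it in 1 library or more under at least 1 setting, among them *Nes* (0.12), *S100a13* (−0.26), *Igfbp7* (−0.33), *Sfn* (0.34), *Myl9* (0.40), *Jun* (0.41), *Gadd45g* (0.43), *Lgals1* (0.45), *Meg3* (0.49), *Lgals3* (−0.49) and *Ttc29* (−0.49), each given as the log2 ratio nearest to or past 0. No paired analysis was possible because each condition has 1 library. Depth limits genes under about 100 UMIs per library, and nothing here measures the spread between cultures.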
